A study of Mus musculus with 6 samples.

Results

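The Zfp zinc finger genes of mouse macrophages were followed through a 6-hour exposure to whole-glucan particles (WGP). Genes were taken as members when their symbol is Zfp followed by a number, leaving out Zfp36, Zfp36l1, Zfp36l2 and Zfp36l3, whose products bind AU-rich messenger RNA. The mouse gene table held 412 such genes. A named probe on the array covered 359 of them, and 225 were measured, meaning that a probe was well above background on both independent arrays of at least 1 group. For 53 genes no probe could be named, and for 134 no probe passed that filter. The measured genes were 223 protein-coding genes, 1 long non-coding RNA and 1 transcribed pseudogene, among 10947 measured genes in all.

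The cells were bone-marrow-derived macrophages of C57BL/6 mice aged 6 to 8 weeks, polarized to the M2 state in both groups. One group was kept for 6 h in complete DMEM without particles (medium), and the other in the same medium with WGP. Expression was read from total RNA on Agilent microarrays with a single dye, Cy3, and 3 files were deposited per group. The third file of each group held the same raw spot signals as replicate 1, with 0 of 44397 spots differing, so each group rests on 2 independent arrays (n = 2). How the cells were polarized, and whether the replicates came from separate mice or cultures, is not given in the sources used here, so a p-value here reflects the variation among these arrays alone, which may be technical.

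WGP are hollow shells of yeast cell wall made mainly of beta-glucan, which macrophages recognise through the receptor dectin-1. Most Zfp genes encode proteins with arrays of C2H2 zinc fingers that read DNA. Many of these also carry a KRAB domain, which recruits the corepressor Trim28, the H3K9 methyltransferase Setdb1 and HP1 proteins, and so silences retroelements and imprinted loci. The name Zfp is a label and not a single pathway: other members bind GC-rich promoters, sit in chromatin complexes, or work on RNA, ribosomes and the mitotic spindle.

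The 75th percentile of the processed signal was 85.8 and 68.6 on the medium arrays and 59.2 and 56.1 on the WGP arrays, and 44.96% to 50.63% of probes were well above background. Replicates 1 and 2 were on different slides, and both slides held an array of each group. The medium array was at position 1 and the WGP array at position 3 on both slides, so position and treatment cannot be told apart. Of 8 macrophage markers 7 had a named probe and all 7 passed the filter, among them Csf1r and Adgre1. The summed level of a list's named markers, each read by its brightest probe on the linear scale relative to the array's 75th percentile, was for macrophages 1434 to 1483 in medium and 1656 to 1917 with WGP. Csf1r, the brightest of that list, made up most of this sum and was not called (limma adjusted p = 0.0586). Cd14 was called higher and Fcgr1, Lyz2 and Mertk were called lower. The B cell markers Cd79a and Cd79b were called lower, and the list's summed level was 0.737 to 0.932 in medium and 0.268 to 0.279 with WGP; no probe of Ms4a1 passed the filter. The sums for neutrophil markers, with 3 of 4 named markers past the filter, were 15.5 to 17.5 in medium and 17.0 to 17.5 with WGP, mostly from Elane. For fibroblast markers, with 3 of 4 past the filter, they were 9.71 to 14.6 and 10.6 to 11.1, and Col3a1 was called lower. The T cell and dendritic cell lists each had 1 marker past the filter, Cd3e and Zbtb46. The sums over these lists were 14.0 to 15.0 in medium and 11.8 to 17.5 with WGP for T cells, and 0.305 to 0.586 and 0.340 to 0.643 for dendritic cells. The part of other cells in the changes of Zfp genes was not tested. In bulk RNA, fewer cells of a type and less RNA per cell cannot be told apart.

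Levels are given below as log2 of a probe's signal over its array's 75th percentile, a change is the mean of the WGP arrays minus the mean of the medium arrays on that scale with its standard error, and a call is an adjusted p under 0.05 from limma over all genes. WGP changed 54 of the 225 measured Zfp genes, 24%, against 40.6% of all genes tested. Of these, 21 rose (background 23.2%) and 33 fell (background 17.4%), which is 9.33% and 14.7% of the measured Zfp genes. The calls that also reached a 2-fold change numbered 5 higher and 8 lower, 5.78% together, against 14.7% of all genes. Both shares use plain differences, also for genes whose dimmer group had no array well above background. Among the Zfp genes counted these were Zfp638, Zfp948, Zfp326, Zfp945, Zfp619 and Zfp692. By the bounds given below, a 2-fold change was not established for Zfp326 (at least 1.89-fold) and Zfp692 (at least 1.86-fold). The groups did not overlap for 150 Zfp genes, 66.7%, against a background of 75.1%. In this setting the share of Zfp genes called was therefore below the share of all genes on each of these counts. For falls this did not hold in every setting. With only probes well above background on every array 37 of 199 Zfp genes fell, against 1834 of 9881 genes. With every file as its own sample, which counts copied arrays, 73 of 225 fell, against 3337 of 10947.

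The median change of the Zfp genes was -0.05, with -0.08 on slide 1 and 0.00 on slide 2, and that of all genes was 0.03. The median size of change was 0.29 for Zfp genes and 0.41 for all genes, with median standard errors of 0.14 and 0.12. Zfp probes were also dimmer, with a median level of -0.15 against 0.55. Among genes below the median signal 28 of 132 Zfp genes were called, 21.2%, against 35.0% of all such genes. Above it 26 of 93 were called, 28.0%, against 46.1%. There 12.9% were higher against 30.3%, and 15.1% were lower against 15.8%. Below the median signal 6.82% were higher against 16.1%, and 14.4% were lower against 18.9%. The share of calls was lower in both ranges, but these did not match the signal. Zfp probes were also dimmer within each, with median levels of -1.44 against -1.16 below and 1.97 against 2.54 above. Their median standard errors were 0.166 against 0.156 and 0.112 against 0.110. The part of signal in the lower share was not tested.

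The direction of these counts depended on scaling. With each array scaled to its median instead, 33 Zfp genes were higher and 16 lower, so that 67.3% of calls were higher in place of 38.9%. For all genes the same scaling moved the share higher from 57.2% to 72.7% and the median change from 0.03 to 0.19. The Zfp median lay below the median of all genes by 0.08 under both scalings. This had to be so, since each scaling shifts all genes of an array by the same amount. Leaving out 1 array lowered the number of Zfp genes called to 39 without medium replicate 1, 31 without medium replicate 2, 21 without WGP replicate 1 and 19 without WGP replicate 2, where 30.0%, 26.1%, 20.7% and 20.6% of all genes were called.

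**Figure D1:**
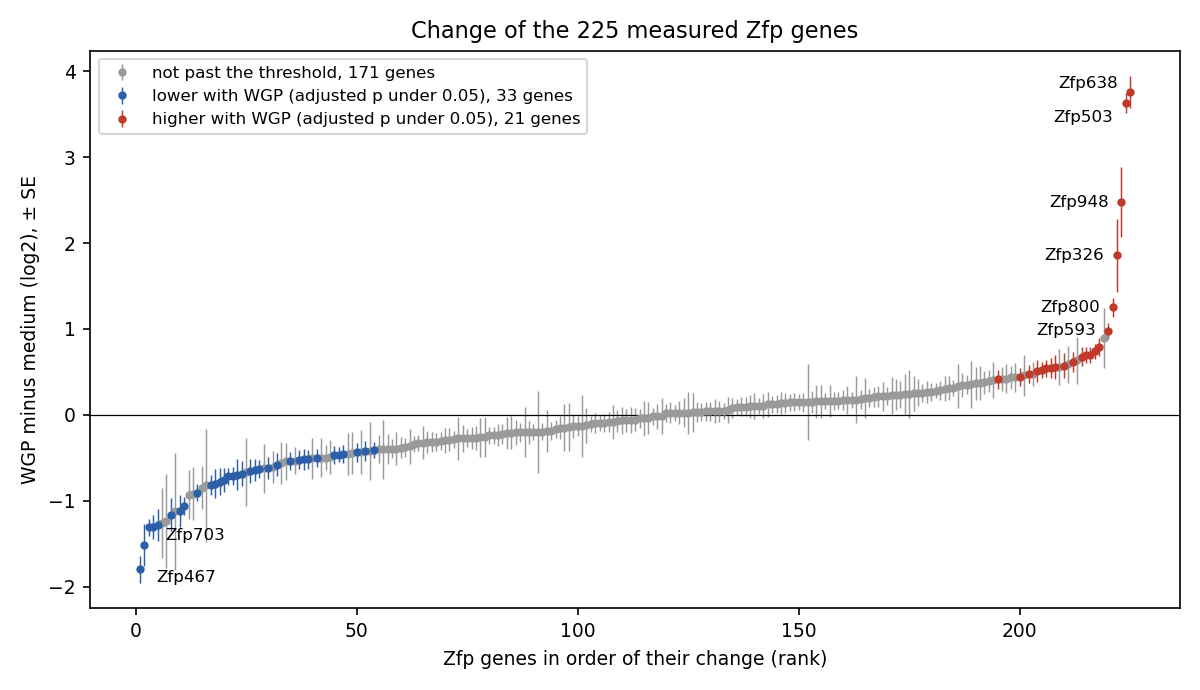
Change (WGP minus medium, log2) of the 225 measured Zfp genes in order of size, with bars for the standard error and n = 2 arrays per group. The 21 genes called higher are red, the 33 called lower are blue, and most genes lie near 0, with Zfp638 and Zfp503 at the upper end and Zfp467 at the lower end.

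**Figure D2:**
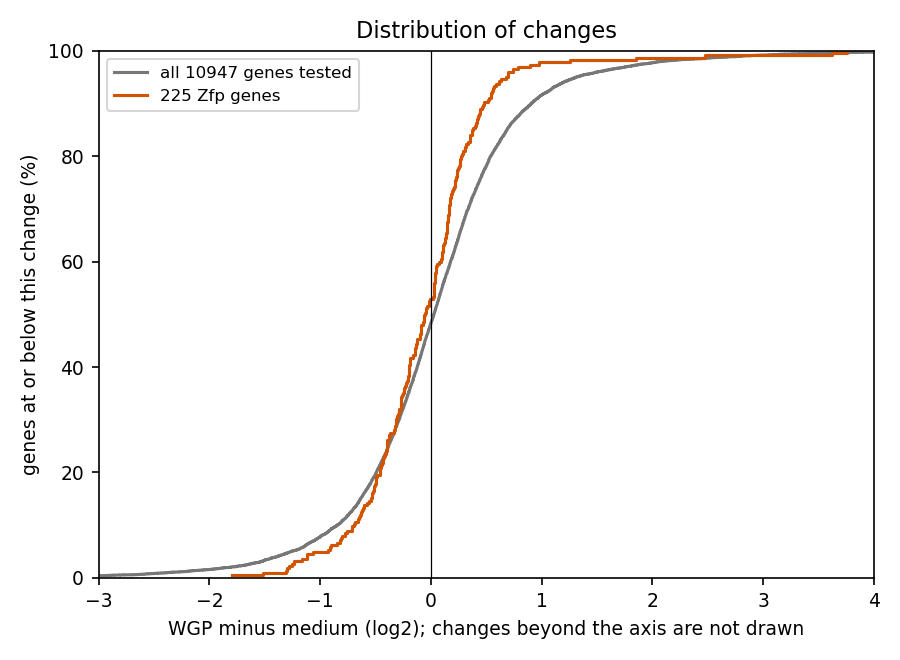
Cumulative share of genes (%) at or below each change (WGP minus medium, log2) for the 225 Zfp genes and all 10947 genes tested. The Zfp curve is steeper around 0, where the median size of change is 0.29 against 0.41 for all genes.

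Zfp503 had the largest rise among members well above background on all 4 arrays. It encodes a corepressor of the NET family, known as Nolz1 and studied in the developing striatum and limb. Its level was -1.37 and -1.41 on the medium arrays and 2.13 and 2.34 on the WGP arrays. That is a rise of 3.63 ± 0.12, or 12.4-fold (limma adjusted p = 0.00129). Both WGP values lay far above both medium values. A second Zfp503 probe, not well above background in medium, differed by 3.58.

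Zfp703, the other NET family member and an oncogene of luminal breast cancer, changed in the opposite direction. It read 5.72 and 5.63 in medium and 4.35 and 4.38 with WGP, so it fell by 1.31 ± 0.10, or 2.47-fold (limma adjusted p = 0.00294). The arrays of each group lay close together, far from those of the other. Both calls of this pair held without each array in turn.

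The next rises were smaller. Zfp800 read -2.66 and -2.76 in medium and -1.39 and -1.52 with WGP, a rise of 1.25 ± 0.11 (limma adjusted p = 0.00383). Zfp593, whose yeast homolog Bud20 serves export of the large ribosomal subunit, read 0.47 and 0.44 in medium and 1.43 and 1.44 with WGP, a rise of 0.98 ± 0.09 (limma adjusted p = 0.00444). Its other kept probe differed by 0.79. Zfp207 encodes BuGZ, which loads the checkpoint protein Bub3 onto kinetochores. Its level went from 0.57 and 0.69 to 1.46 and 1.38, a rise of 0.79 ± 0.11 (limma adjusted p = 0.00909). Without WGP replicate 1 the adjusted p was 0.0523.

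Zfp655, also called Vik and known to bind Vav1, read 2.95 and 2.93 in medium and 3.68 on both WGP arrays, a rise of 0.74 ± 0.09 (limma adjusted p = 0.00777). Its other kept probes carry a different transcript accession and differed by 0.08 and 0.36, and the mean of the kept probes, 0.39, was not past the threshold (adjusted p = 0.110). Zfp653 read 1.03 and 1.09 in medium and 1.75 and 1.77 with WGP, a rise of 0.70 ± 0.09 (adjusted p = 0.00919). Zfp35 read 0.99 and 0.81, then 1.59 and 1.57, a rise of 0.68 ± 0.11 (adjusted p = 0.0147). Zfp407, which takes part in glucose uptake in fat cells, read 0.12 and 0.31, then 0.85 and 0.81, a rise of 0.62 ± 0.11 (adjusted p = 0.0195). In each of the 8 rises both WGP values were above both medium values. Their choice as the largest called rises made this likely, and the groups did not overlap for 75.1% of all genes. The calls of Zfp653 (adjusted p = 0.0534 and 0.0561) and Zfp35 (0.0718 and 0.0680) were lost without WGP replicate 1 or 2. That of Zfp407 was lost when medium replicate 1 or either WGP replicate was left out (adjusted p = 0.0542, 0.0922 and 0.0789).

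Zfp467, which acts in the choice between fat and bone cell fates, fell most among members well above background on all arrays. It read 2.09 and 1.81 in medium and 0.27 and 0.04 with WGP, so it fell by 1.79 ± 0.16, or 3.47-fold (limma adjusted p = 0.00383). Its 4 kept probes all differed in that direction, from -0.999 to -1.95. Zfp395, which binds the regulatory region of the huntingtin gene, read 2.12 and 2.38 in medium and 0.86 and 1.04 with WGP. It fell by 1.30 ± 0.14 (limma adjusted p = 0.00581), and its 4 probes ranged from -1.30 to -1.51. Several probes thus read both falls in 1 direction.

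Zfp30, a regulator of CXCL1 and of neutrophil recruitment in the mouse lung, read -1.06 and -1.32 in medium and -2.14 and -2.56 with WGP. It fell by 1.16 ± 0.19 (limma adjusted p = 0.0150), and without medium replicate 1 the adjusted p was 0.0601. Zfp414 went from 3.40 and 3.35 to 2.37 and 2.26 and fell by 1.06 ± 0.10 (limma adjusted p = 0.00461). Zfp90 went from 3.22 and 3.24 to 2.28 and 2.37 and fell by 0.90 ± 0.10 (limma adjusted p = 0.00573). The pairs of arrays were close together for Zfp414 and Zfp90, and wider apart for Zfp30.

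Zfp523, the mouse ZNF76 and a paralog of Zfp143, read 1.84 and 2.24 in medium and 1.17 and 1.31 with WGP, and fell by 0.80 ± 0.17 (limma adjusted p = 0.0270). Zfp961 read 0.72 and 0.37, then -0.29 and -0.17, and fell by 0.78 ± 0.16 (limma adjusted p = 0.0237). Neither of these calls was kept without WGP replicate 1 or 2, nor was that of Zfp523 without medium replicate 2 or that of Zfp961 without medium replicate 1 (adjusted p = 0.0525 to 0.101 in these fits), and Zfp523 was not called with median scaling (0.0702). In each of the 8 falls both WGP values were below both medium values, which their choice as the largest called falls likewise made likely.

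**Figure D3:**
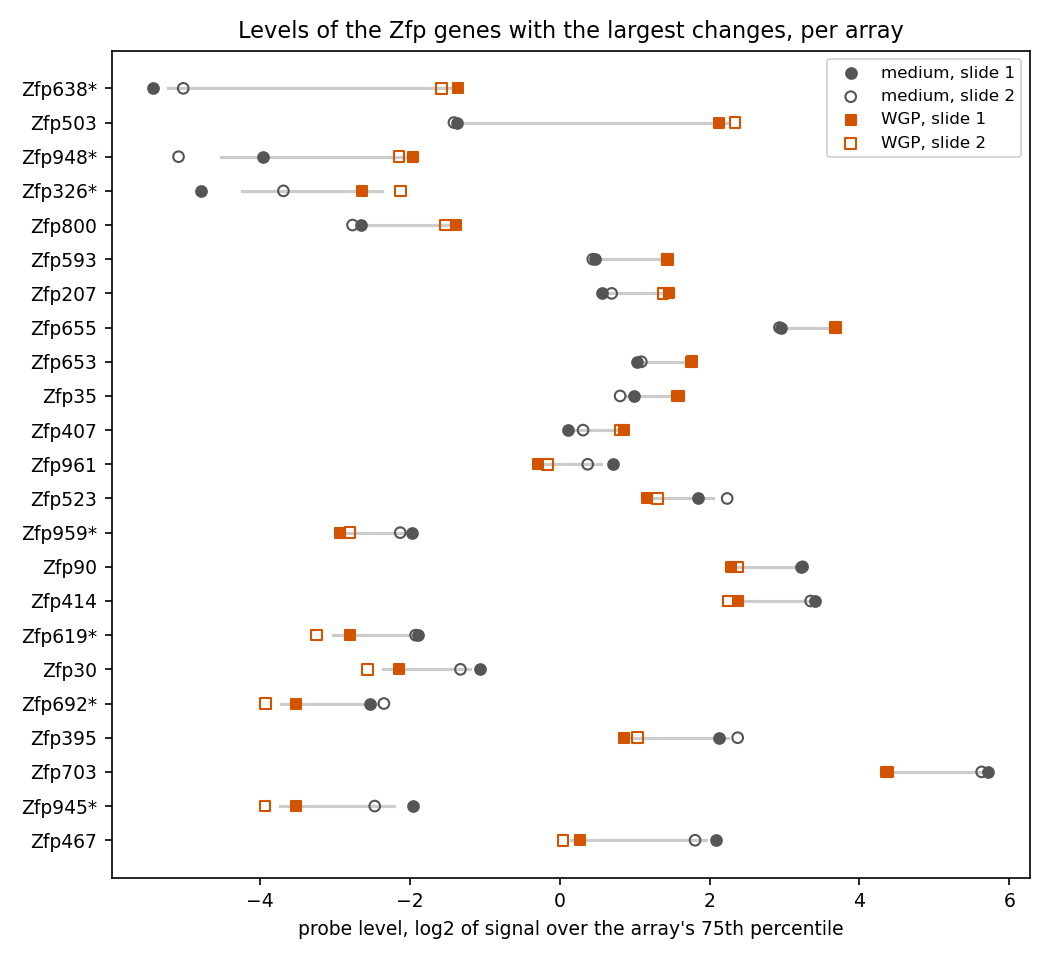
Level on each of the 4 arrays (log2 of signal over the array's 75th percentile) of the Zfp genes with the largest called changes, circles for medium, squares for WGP, filled for slide 1 and open for slide 2, and grey lines joining the group means. An asterisk marks a gene not well above background on either array of 1 group. The medium and WGP values are apart in every gene drawn, which the choice of called genes made likely.

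Some called members were not well above background on either array of 1 group, and their difference was read as a bound. The bound sets the mean of the brighter group against the lowest signal called well above background on the arrays of the dimmer group, or the probe's own signal there where that was higher. Where the probe's own signal was higher on both arrays, the fold is the plain difference and not a minimum. Zfp638 encodes NP220, a nuclear protein that binds DNA and RNA and brings the HUSH complex to unintegrated retroviral DNA. Its single probe read -5.42 and -5.02 in medium, not well above background, and -1.35 and -1.58 with WGP. It was at least 3.56-fold higher with WGP (limma adjusted p = 0.00159). The call held without each array in turn.

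Zfp948 read -3.96 and -5.09 in medium and -1.95 and -2.14 with WGP, at least 2.37-fold higher (limma adjusted p = 0.0143). Zfp326, a subunit of the DBIRD complex that links transcription to splicing, read -4.78 and -3.69, then -2.63 and -2.12, at least 1.89-fold higher (limma adjusted p = 0.0327). Its call was lost when medium replicate 1 or either WGP replicate was left out (adjusted p = 0.0536, 0.0581 and 0.0962). These were the 3 Zfp genes called higher from a dim medium group.

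On the lower side the WGP group was the dim one. Zfp945 went from -1.96 and -2.47 to -3.52 and -3.93, at least 2.18-fold lower (limma adjusted p = 0.0142). Zfp619 went from -1.89 and -1.92 to -2.79 and -3.25, 2.17-fold lower (limma adjusted p = 0.0142). It was not called without either medium replicate, with changes of -1.10 without replicate 1 and -1.13 without replicate 2. Zfp692, which binds the AICAR response element and represses gluconeogenic genes, went from -2.54 and -2.35 to -3.51 and -3.93, at least 1.86-fold lower (adjusted p = 0.0106). Without medium replicate 2 its adjusted p was 0.0521. Zfp959 went from -1.98 and -2.13 to -2.93 and -2.80, 1.76-fold lower (limma adjusted p = 0.0104). Without WGP replicate 1 it changed by -0.75 and was not called. For Zfp619 and Zfp959 the probe's own signal with WGP was the higher, so these folds are plain differences and not minimum values.

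Background correction changed the size of many of these differences. With normexp and an offset of 50 before 75th percentile scaling, 32 of the 54 Zfp calls were kept. The change of Zfp638 was then 0.61 and that of Zfp948 was 0.47, both still called. The rises of Zfp503 (2.17), Zfp800 (0.42), Zfp593 (0.46), Zfp207 (0.42) and Zfp326 (0.35) were smaller and still called. Zfp326 was not called when quantile normalization followed (adjusted p = 0.0709), and Zfp30 was at -0.26 and not called with 75th percentile scaling (adjusted p = 0.0548). The differences of Zfp945 (-0.09), Zfp619 (-0.00) and Zfp692 (-0.03) were then not called, and Zfp959 was at 0.03, on the other side of 0. Zfp703, a bright probe, was at -1.42 under the same correction.

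Promoter windows from 250 bases before to 50 bases after the annotated start were read from RefSeq (GRCm38.p6) for 333 Zfp genes with 403 windows. The 250 bases before the start are shown for the largest rise and the largest fall among members well above background on all arrays. They are also shown for Zfp655, Zfp207 and Zfp523, chosen as examples from the called members with a match to a common promoter motif. Others with a match, such as Zfp131 and Zfp945, are not shown. Another window of Zfp523, also not shown, held no match. Capitals mark the match: the ETS core CCGGAAG in Zfp655, the E-box CACGTG in Zfp207 and the cyclic AMP response element TGACGTCA in Zfp523. The stretches shown for Zfp503 and Zfp467 held none of the motifs searched, while the full window of Zfp467, which runs 50 bases past the start, held a kappaB match.
Zfp503, chr14:21989602-21989851, minus strand: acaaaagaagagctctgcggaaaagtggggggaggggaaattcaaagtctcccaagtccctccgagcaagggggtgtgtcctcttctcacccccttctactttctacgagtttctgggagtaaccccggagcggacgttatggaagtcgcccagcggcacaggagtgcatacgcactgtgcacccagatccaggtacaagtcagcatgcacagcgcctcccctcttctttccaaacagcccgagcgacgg
Zfp467, chr6:48445091-48445340, minus strand: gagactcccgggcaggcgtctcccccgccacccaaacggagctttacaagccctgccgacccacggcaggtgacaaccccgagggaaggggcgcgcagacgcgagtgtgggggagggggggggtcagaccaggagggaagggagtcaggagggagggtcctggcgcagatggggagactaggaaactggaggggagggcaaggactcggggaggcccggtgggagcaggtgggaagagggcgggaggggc
Zfp655, chr5:145231492-145231741, plus strand: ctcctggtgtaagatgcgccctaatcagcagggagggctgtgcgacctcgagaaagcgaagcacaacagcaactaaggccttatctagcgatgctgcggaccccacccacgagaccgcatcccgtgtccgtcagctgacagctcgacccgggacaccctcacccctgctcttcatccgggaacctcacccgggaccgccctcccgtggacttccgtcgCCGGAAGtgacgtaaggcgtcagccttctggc
Zfp207, chr11:80383029-80383278, plus strand: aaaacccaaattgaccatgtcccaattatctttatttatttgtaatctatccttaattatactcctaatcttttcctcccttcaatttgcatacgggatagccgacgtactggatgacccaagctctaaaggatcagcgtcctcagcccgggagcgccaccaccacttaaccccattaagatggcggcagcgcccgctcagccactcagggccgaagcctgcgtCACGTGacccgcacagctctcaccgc
Zfp523, chr17:28176946-28177195, plus strand: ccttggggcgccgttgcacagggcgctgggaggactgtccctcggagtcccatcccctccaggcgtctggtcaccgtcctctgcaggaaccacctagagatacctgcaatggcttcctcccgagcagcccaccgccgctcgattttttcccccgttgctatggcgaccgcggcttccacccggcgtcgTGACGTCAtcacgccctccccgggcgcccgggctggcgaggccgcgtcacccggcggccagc

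The motifs searched, on both strands, were these 3, the AP-1 site TGAGTCA and the kappaB consensus. The E-box and the cyclic AMP response element share their central letters but cannot lie one inside the other. The ETS core was in 21.1% of Zfp windows, 17% of the windows of genes tested and 8.86% of all windows. It was in 2 of 23 windows of Zfp genes called higher, 7 of 33 of those called lower and 33 of 173 of those measured and not called. The kappaB consensus was in 7.94% of Zfp windows, 10.4% of windows of genes tested and 8.46% of all windows. It was in 3 of 23 windows of members called higher, from 2 of 16 genes, and in 3 of 33 windows of those called lower, from 3 of 28 genes. AP-1 was in 3.23%, 4.06% and 5.20%, the E-box in 6.20%, 10.1% and 7.15%, and the cyclic AMP response element in 3.72%, 2.97% and 1.79% of Zfp, tested and all windows. A match is a description of letters in this window, and no match says nothing of a factor's binding.

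Members with known roles were also read by group, from lists chosen for their function. Of 48 genes listed, 36 were measured and 8 were called, 22.2%, against 40.6% of all genes, with 5 higher and 3 lower.

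Among proteins of RNA, ribosomes and mitosis, 10 of 12 listed were measured, 4 rose and 0 fell by limma, so that 40% were called against 40.6% of all genes, with 1 lower at an unadjusted p under 0.05, Zfp385a. The 4 were Zfp207, Zfp326, Zfp593 and Zfp638, described above, and the group's median change was 0.46 against 0.03 for all genes. Zfp326 and Zfp638 passed the filter only through the WGP arrays, where they are high. The count of rises and the median therefore rest partly on that filter. Zfp330 differed by 0.48 ± 0.14 (adjusted p = 0.0553) and Zfp830 by 0.44 ± 0.14 (adjusted p = 0.0663). Zfp385a, which binds p53, differed by -0.38, and Zfp622, which serves late maturation of the large ribosomal subunit, by -0.27. Each of these 4 was called under some other scalings or background corrections, Zfp330 and Zfp830 as higher and Zfp385a and Zfp622 as lower, with Zfp622 at -0.44 under normexp with 75th percentile scaling (adjusted p = 0.00680). Zfp106 (-0.21) and Zfp706 (-0.06) overlapped between groups. Zfp346 and Zfp598 had no probe past the filter.

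Among sequence-specific activators and repressors 7 of 9 listed were measured, 1 rose and 1 fell. Zfp143, the activator known as Staf that drives small nuclear RNA promoters, read -1.35 and -1.20 in medium and -0.79 and -0.81 with WGP. It rose by 0.47 ± 0.11 (limma adjusted p = 0.0305), but was not called with the slide as a block (adjusted p = 0.0515) or without any 1 of the 4 arrays (0.0527 to 0.135). Under normexp it was at 0.19 and 0.14 (adjusted p = 0.103 and 0.154). Its paralog Zfp523 fell, as given above. Zfp410, whose known target is the Chd4 gene, read -0.75 and -0.57, then -1.17 and -1.18, and fell by 0.51 ± 0.11 (limma adjusted p = 0.0285). Chd4 itself differed by 0.24 ± 0.09 (adjusted p = 0.107). The call of Zfp410 was lost when medium replicate 2 or either WGP replicate was left out (adjusted p = 0.0790, 0.113 and 0.120) and with median scaling (0.138) or quantile normalization (0.0529). Under normexp it was at -0.13 and -0.15 (adjusted p = 0.313 and 0.199). The GC-box binders Zfp148 and Zfp281 differed by 0.05 and 0.17, Zfp263 by 0.29, Zfp384 by 0.10 and Zfp64 by -0.09, none past the threshold. The other kept probe of Zfp64 differed by -0.92, and the mean of both, -0.50, was called lower (adjusted p = 0.0318). Zfp161 and Zfp238 are not in the gene table under those symbols.

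Of the members of chromatin complexes 9 of 12 listed were measured and 0 were called by limma, with 0 at an unadjusted p under 0.05. Zfp217, which works with LSD1 and CoREST, differed by -0.40 ± 0.16 (adjusted p = 0.121), with 0.63 and 0.26 in medium and -0.01 and 0.10 with WGP. Zfp608 was at -0.42 ± 0.34 with overlapping groups. Zfp592 and Zfp687, both of the Z3 complex, differed by -0.09 and -0.24. Zfp644 and Zfp518b, partners of the methyltransferase G9a, differed by 0.22 each, Zfp518a by 0.10, Zfp609 by 0.16 and the SUMO ligase Zfp451 by 0.37. Without medium replicate 2 Zfp451 was at 0.61 and called (adjusted p = 0.0488), and under normexp with quantile normalization Zfp687 was called lower (-0.23, adjusted p = 0.0473). Zfp462, Zfp516 and Zfp532 had no probe past the filter.

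Of the members known for silencing imprints and retroelements 5 of 7 listed were measured, and 1 fell. Zfp809, which silences murine leukaemia virus through Trim28, read -0.13 and -0.23 in medium and -0.85 and -0.77 with WGP. It fell by 0.63 ± 0.10 (limma adjusted p = 0.0143), with no overlap between the groups, as for 75.1% of all genes. Leaving out medium replicate 1 or either WGP replicate ended its call (adjusted p = 0.0503, 0.0804 and 0.0614), as did median scaling (0.0506). Under normexp it was at -0.17 and -0.19 (adjusted p = 0.162 and 0.0855). Zfp57 and Zfp445, which keep imprints, differed by 0.06 and -0.27, Zfp568, a repressor of Igf2, by 0.27, and Zfp932, which acts on endogenous retroviruses, by 0.09. Zfp708 and Zfp42 had no probe past the filter.

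Of the members known from immune and blood cells 5 of 8 listed were measured, and 1 fell. Zfp710 read 4.56 and 4.75 in medium and 4.07 and 4.21 with WGP and fell by 0.52 ± 0.12 (limma adjusted p = 0.0346), a call not kept without any 1 of the 4 arrays (adjusted p = 0.0550 to 0.153) or with median scaling (0.171). Zfp335, needed for T cell maturation, differed by -0.91 ± 0.31 (adjusted p = 0.0808), with -2.17 and -1.49 in medium and -2.49 and -2.996 with WGP. Zfp341, an activator of the STAT3 gene, differed by 0.31 and was called with median scaling (0.48, adjusted p = 0.0440) and under normexp with 75th percentile scaling (0.25, adjusted p = 0.0475). Zfp318, needed for IgD, differed by 0.21 and Zfp423 by 0.17. Zfp521 and Zfp296 had no probe past the filter, and Zfp91 no named probe.

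The partners of KRAB zinc finger proteins were read from a list of 29 genes of the Trim28, HUSH, H3K9 methylation and DNA methylation machinery, of which 23 were measured. Of these 7 were called, 30.4% against 40.6% of all genes, with 5 higher and 2 lower, and the median change was 0.16 against 0.03. Uhrf1, among the 5, passed the filter only through the WGP arrays, where it is high. The count of rises and the median therefore rest partly on that filter. With only probes well above background on every array 4 were higher and 4 lower, with a median of 0.13. The balance depended on processing: quantile normalization and both normexp settings gave 2 higher and 4 lower, with Mphosph8 and Morc2a higher and Atrx, Ehmt2, Cbx3 and Chd3 lower in each. Trim28 itself read -0.13 and -0.04 in medium and 0.11 and 0.10 with WGP, a difference of 0.19 ± 0.10 (limma adjusted p = 0.193). Setdb1 read -0.72 and -1.01, then -1.76 and -0.97, a difference of -0.50 ± 0.30 (limma adjusted p = 0.2502), and its groups overlapped. The core pair through which KRAB domains act was thus not called in either direction.

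Mphosph8, the chromodomain subunit of the HUSH complex that Zfp638 works with, read 0.29 and 0.43 in medium and 1.14 and 1.20 with WGP, and rose by 0.81 ± 0.11 (limma adjusted p = 0.00865). Morc2a, a HUSH partner, rose by 0.51 ± 0.12 (adjusted p = 0.0315). The other HUSH subunits Tasor and Pphln1 differed by 0.10 (adjusted p = 0.486) and 0.34 (0.136). Hdac1 rose by 0.45 (adjusted p = 0.0437), the histone chaperone Daxx by 0.36 (0.0482), and Uhrf1, dim in medium, was at least 2.03-fold higher (0.0491). Atrx, the remodeller that works with Daxx, fell by 0.87 ± 0.14 (adjusted p = 0.0136), and the G9a gene Ehmt2 fell by 0.42 ± 0.10 (0.0317). With the slide as a block 5 genes of the list were called, 4 higher and 1 lower: Daxx, Hdac1 and Ehmt2 were not called (adjusted p = 0.0820, 0.0519 and 0.0574), and Dnmt1 was (0.0370). Leaving out 1 array left 2 calls without medium replicate 1, 3 without medium replicate 2, 2 without WGP replicate 1 and 1 without WGP replicate 2. Mphosph8 was called in all of these (adjusted p = 0.0290 to 0.0497), Atrx in all but the last (0.0602), and Uhrf1 without medium replicate 2 (0.0209).

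Zfp genes often lie next to each other, as copies of one ancestor. Neighbours were joined into a run where at most 2 other protein-coding genes lay between them, and 12 runs held at least 4 measured members, 78 in all. In the runs 12 members were called, 15.4%, with 3 higher and 9 lower. Outside them 42 of 147 were called, 28.6%, with 18 higher and 24 lower. Of all genes tested 40.6% were called, 23.2% higher and 17.4% lower. Probes in runs were dimmer, with a median level of -0.53 against 0.17 outside, and the median size of change was 0.27 against 0.31. Whether probes of similar copies also bind each other's transcripts was not tested.

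The longest run, from Zfp712 to Zfp273, had 13 measured members and 0 called by limma, with 0 at an unadjusted p under 0.05 and changes from -0.39 to 0.33. The run from Zfp677 to Zfp946 had 12 measured members and moved in both directions. There Zfp948 and Zfp52 (0.44, adjusted p = 0.0319) were higher, and Zfp229 (-0.75, adjusted p = 0.0190) and Zfp946 (-0.40, adjusted p = 0.0321) were lower. In the run from Zfp84 to Zfp146 Zfp30 was the only 1 of 10 called. Zfp467 and Zfp398 (-0.46, adjusted p = 0.0321) were called lower in the run from Zfp786 to Zfp467, whose 6 measured members ranged from -1.79 to 0.42.

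In 3 runs no measured member had a positive change. The run from Zfp579 to Zfp580 had 5 members between -0.49 and -0.06, with Zfp579 and Zfp524 called lower (adjusted p = 0.0399 and 0.0491). The run from Zfp560 to Zfp846 had 4 between -0.45 and -0.05, and that from Zfp955a to Zfp101 had 4 between -0.53 and -0.19, none of these 8 past the threshold, with 2 and 1 at an unadjusted p under 0.05. These signs are given as counted and were not tested as a group.

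**Figure D4:**
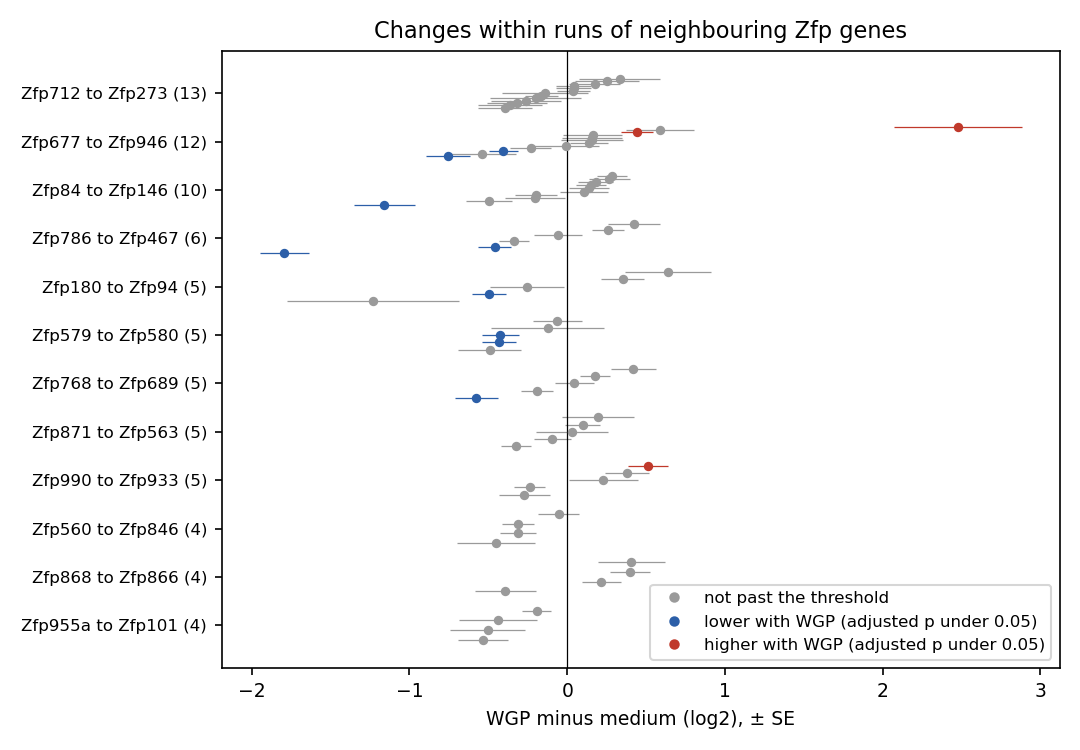
Change (WGP minus medium, log2, bars for the standard error) of each measured Zfp gene in the 12 runs of neighbours, with the number measured in brackets, red for called higher, blue for called lower and grey for neither. The largest changes, Zfp948 and Zfp467, stand apart from the other members of their runs.

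The remaining called members changed by at most 1.69-fold. Those called higher included Zfp367 (0.69), Zfp24 (0.56), which carries a SCAN domain, and Zfp131 (0.55), which carries a BTB domain. Those called lower included Zfp120 (-0.72), Zfp512b (-0.71) and Zfp691 (-0.68). With the slide as a block 48 Zfp genes were called, 42 of them among the 54, and Zfp24 and Zfp131 were not (adjusted p = 0.0617 and 0.0501).

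The 3 brightest Zfp probes, by each probe's own signal, were those of Zfp628, Zfp663 and Zfp408, and none was called. Zfp628 read 11.8 and 11.9 in medium and 12.3 and 11.95 with WGP, Zfp663 read 9.19 and 9.44, then 9.11 and 8.94, and Zfp408 read 8.66 and 8.81, then 8.66 and 8.73. A second Zfp628 probe read 0.82 to 1.02 over the same arrays, and a second Zfp663 probe was not well above background on any, so probes of these genes disagree on the level. Zfp663 was called lower under normexp (-0.53 with 75th percentile scaling, adjusted p = 0.00329, and -0.35 with quantile normalization, 0.0345). Among 65 measured members with several kept probes, 16 had probes with changes of opposite sign. Of the 13 of these that were called, 0 had.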

How the data were processed

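The submitters' processing notes name Agilent Feature Extraction, version 10.7.3, for the scans. The deposited processed signal is a background-corrected intensity, per the file headers, and the deposited log2 table of the series matched it after centring (r = 0.9999 over 39390 probes); its baseline is unknown, with column medians of -0.01, 0.16 and 0.10 for medium and 0.10, 0.13 and 0.10 for WGP. Probe flags for signal well above background were taken from the files.

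Control and outlier spots were left out, log2 intensities were scaled to each array's 75th percentile, and the brightest kept named probe stood for a gene. Of 39429 probes 67.9% could be named through RefSeq accessions of GRCm38.p6; the array design predates it, so no probe positions are given, and positions from that build served only the RefSeq promoter windows and the order of neighbouring genes. WGP was set against medium with limma 3.58.1 (R 4.3.3; lmFit and eBayes, Benjamini-Hochberg over 10947 genes, no covariate, residual df 2), after a test on simulated data. That test drew independent noise for brighter probes only, with no slide effect, so it does not check the calls of dim genes. WGP replicate 3 equals 1.3 times replicate 1 within 0.488% and was averaged with it; medium replicate 3 matches the mean of replicates 1 and 2 within 0.695% and was left out. The number of arrays limits precision.

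The members, lists and tests were chosen with earlier results of these data known. Named genes were the measured members of 5 role lists, the 8 largest called rises and falls well above background on all arrays, up to 5 bounded calls per direction and the 3 brightest probes; run members and the other called genes were named after their values were seen. The normexp alternative used median spot signals, as mean signals were not used here. A planned split by KRAB motif was not analysed here. Same-numbered replicates share a slide, per the file headers; their deviations correlated at 0.140 over 2 pairs. Alternatives were other scalings, background corrections, filters, probe choices, a replicate block, uses of replicate 3 and leaving out each array.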

Additional observations from a re-analysis of the deposited data

How the results depend on the processing

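Zfp395, Zfp414, Zfp467, Zfp503, Zfp593, Zfp638, Zfp703, Zfp800 and Zfp90 were called in every setting in which they were tested, and the Zfp median lay below that of all genes in each setting, by 0.04 to 0.10. Median scaling and the replicate block could not change that difference, and the authors' series-wide values are nearly the same data. With median scaling 1199 genes were lower and the median of all genes was 0.19. For Zfp genes it gave 33 higher, 16 lower and a median of 0.11, and for the KRAB partner list 1 lower and a median of 0.33. Quantile normalization gave a median of 8e-04 for all genes, and 2 higher, 4 lower and a median of 0.10 for the partner list. Normexp with 75th percentile scaling gave that list 2, 4 and 0.0377, and with quantile normalization 2, 4 and 0.0387, with a median of -1e-04 for all genes. Under the former Zfp959 (0.0325) and Zfp422 (0.0331) changed sign. Without the filter on dim probes 1532 genes were called (895 higher, 637 lower, median 0.13), 11 Zfp genes of 359 (6 higher, 5 lower, median 0.0352) and 0 of 28 partners by limma (0 higher, 0 lower, 6 at an unadjusted p under 0.05). Treating every file as its own sample, which counts copied arrays, gave 7452 calls (4115 and 3337), 132 Zfp genes (59 and 73) and 14 partners (9 and 5). For the partner list, probes well above background on every array gave 4 lower and a median of 0.13. There the mean of kept probes gave a median of 0.19, the authors' series-wide values gave 0.18, and averaging medium replicate 3 with replicate 1 gave 4 lower and 0.18. With the replicate block 4090 genes, 48 Zfp genes and 1 lower partner were called; among the genes named by rule it ended the call of Zfp143 alone, and Zfp330 became called (adjusted p = 0.0465). Leaving out 1 array in turn, all genes called ranged from 2257 to 3281 (higher 1194 to 1974, lower 1038 to 1307, median 0.0042 to 0.0652). Zfp genes ranged from 19 to 39 (higher 7 to 20, lower 12 to 19, median -0.0776 to 0.0178), and partners from 1 to 3 (higher 1 to 2, lower 0 to 1, median 0.11 to 0.19). A lone array was assumed to vary like the other group. The cause of these shifts was not tested.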
